A study of Mus musculus with 57 samples.

Results

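The Dlgap and Homer genes encode proteins that bind the Shank scaffolds of excitatory synapses, and 7 of them were followed here in the prefrontal cortex of young mice: Dlgap1, Dlgap2, Dlgap3, Dlgap4, Homer1, Homer2 and Homer3. They were taken by gene symbol, not by value, from the 18088 genes of the deposited table. Earlier results of these data were known when they were chosen. All 7 were found, and each passed the filter on low values in all 56 libraries. The mice were C57BL/6J, either wild type (WT) or heterozygous (HT) for an allele named Shank3 delta C; the labels do not say which bases of Shank3 it changes. Each received vehicle, lithium (a mood stabiliser) or fluoxetine (an inhibitor of serotonin reuptake) in the milk of its mother for 3 weeks, from postnatal day 3 to 24, and cortex was collected at the age of 25 days. Crossing genotype with drug and sex gave 12 groups. Mice of every group shared the strain, the age and the route, and the vehicle groups served as controls for both drugs. There were 5 libraries in each of 9 groups, 4 for lithium-treated WT females, 4 for lithium-treated HT males and 3 for vehicle-treated HT males. Litters are not named, so p-values treat pups that may have shared a dam as independent.

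Dlgap proteins, also called SAPAP or GKAP, sit in the middle of the postsynaptic scaffold: they bind the guanylate kinase domain of PSD-95 (the product of Dlg4) on the membrane side and the PDZ domain of Shank proteins on the other. Homer proteins bind a proline-rich part of Shank and, through the same domain, the metabotropic glutamate receptors and the calcium channels of internal stores, and the long forms join into tetramers that cross-link these partners. Homer1 also gives a short form, Homer1a, that neuronal activity induces and that lacks the coiled coil needed for cross-linking. The deposited values join all transcripts of a gene, so the short and the long forms of Homer1 cannot be told apart in them.

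The promoters of Homer1 and Dlgap4 are shown because these are the members whose level was called in a drug comparison. They come from RefSeq on GRCm38.p6 and run from 250 bases before the start of transcription to 50 bases from it, 5′ to 3′. Both genes lie on the plus strand, at chr13:93303507-93303806 and chr2:156720715-156721014. Capitals mark TGACG on either strand, the core letters of the cyclic AMP response element.
Homer1: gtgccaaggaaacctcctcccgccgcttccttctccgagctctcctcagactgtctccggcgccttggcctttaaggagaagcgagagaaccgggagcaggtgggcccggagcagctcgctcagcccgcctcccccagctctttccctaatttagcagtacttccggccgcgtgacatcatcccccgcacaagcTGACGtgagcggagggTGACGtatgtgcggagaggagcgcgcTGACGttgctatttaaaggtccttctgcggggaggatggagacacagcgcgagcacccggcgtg
Dlgap4: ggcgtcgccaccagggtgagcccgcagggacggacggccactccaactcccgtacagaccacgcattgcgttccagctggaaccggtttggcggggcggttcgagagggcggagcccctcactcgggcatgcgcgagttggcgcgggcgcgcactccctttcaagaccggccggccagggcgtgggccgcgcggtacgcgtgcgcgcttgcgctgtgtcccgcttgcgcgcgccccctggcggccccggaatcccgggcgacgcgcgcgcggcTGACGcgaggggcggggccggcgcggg
Homer1 holds TGACG 3 times, beginning at -56, -40 and -14 from the start, and Dlgap4 once, 24 bases after it. A second Homer1 window, at chr13:93307784-93308083, holds it 0 times. Of 32851 RefSeq promoter windows of the same length, 20.8% hold the letters and 1.03% hold them 3 times or more. The full palindrome TGACGTCA was in none of the 9 windows that belong to 6 members, and is in 1.79% of all windows. GGGCGG, the GC box, was found 3 times in Dlgap4 and 0 times in this Homer1 window, against 35.7% of windows that hold it. A match describes the letters only and shows no binding.

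Library depth, counted as whole reads recovered from the table, ran from 22984556 to 35969254. Markers of excitatory neurons summed to between 84461 and 181898 normalised counts per library. Those of cortical layers (Cux2, Rorb, Fezf2, Bcl11b, Foxp2 and Tle4) summed to between 7376 and 10505. Both kinds were present in every library, which does not check the area of cortex, since neither list was chosen to tell areas apart. Markers of the olfactory bulb, which is no part of the prefrontal cortex, summed to between 239 and 14785 normalised counts, and those of striatal projection neurons to between 4701 and 11784. In HT vehicle female 1, choroid plexus markers stood 6.29 above the median on the log2 scale, and in HT lithium female 5 mitochondrially encoded genes stood at -1.64 from it. Shank3 itself did not differ by genotype under vehicle, with a log2 difference of 0.05 ± 0.09 (SE; limma adjusted p = 0.915), which does not check the labels because the changed part of the gene is not given. In bulk tissue, fewer cells of a type and less RNA per cell cannot be told apart.

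Levels of different members were set side by side only per length, as reads per kb of the longest transcript scaled so that all genes of a library sum to 1000000. On that scale Dlgap3 stood highest, at 251 ± 45.2 units (SD, n = 56), with Dlgap1 at 201 ± 17.2, Dlgap4 at 164 ± 19.1 and Dlgap2 at 52.8 ± 6.98. Homer1 made up most of its family, at 115 ± 25.3 units, against 27.3 ± 4.19 for Homer2 and 7.89 ± 2.33 for Homer3. Their partners stood at 182 for Shank1, 103 for Shank3, 87.3 for Shank2 and 428 for Dlg4. The order of the Dlgap genes depended on the length used: per kb of the mean coding transcript, Dlgap1 stood at 287, Dlgap4 at 272, Dlgap3 at 226 and Dlgap2 at 49.4 units, while the Homer order stayed Homer1, Homer2, Homer3, at 221, 62.1 and 9.10.

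The 7 members differed in how much they varied over the 56 libraries, differences between groups included. Dlgap1 had the lowest coefficient of variation, at 7.70%, with normalised counts from 13084 to 18565. Dlgap4 followed at 8.64%. Homer1 varied by 22.8%, from 3590 to 10017 normalised counts, and Homer3 by 25.1%, from 142 to 351. Within groups Dlgap4 was the steadiest, with an SD of log2 values of 0.088, and Dlgap1 followed at 0.103. Homer1 and Homer3 stood at 0.303 and 0.321. In the order of the 12 group means, no step from a group to its neighbour exceeded the larger of their SDs, for any member (0 of 11 steps each). Sorting splits the range of means into 11 small steps, so this does not show that groups farther apart in the order were alike. The highest group mean was 1.80 times the lowest for Homer1, 1.56 times for Homer3, 1.39 times for Dlgap3, 1.30 times for Dlgap2, 1.27 times for Dlgap4, 1.18 times for Homer2 and 1.16 times for Dlgap1.

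Dlgap4 rose with lithium in both genotypes in the deposited values, though neither call held after a correction for GC content and length. In HT females its normalised counts were 7592, 7351, 6748, 7419 and 7884 under vehicle and 9290, 8749, 9560, 9148 and 10183 under lithium. Every lithium-treated HT female stood above every vehicle-treated one, a separation found in 6.49% of all genes in that comparison. In HT males the values were 7894, 8475 and 8299 under vehicle and 8996, 9605, 8857 and 8815 under lithium. These groups too did not overlap, as in 17.5% of genes there. With the sexes averaged, Dlgap4 rose by 0.24 ± 0.05 on the log2 scale (SE; limma adjusted p = 4.80e-04), or 18.3%. It was the 1 member of 7 called for lithium in HT, where 9.77% of 18026 genes were called. In HT females alone the rise was 0.34 ± 0.06 (limma adjusted p = 1.06e-04).

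In WT mice the rise of Dlgap4 with lithium was smaller. WT females had 7727, 7702, 7232, 7394 and 8209 normalised counts under vehicle and 9302, 8476, 8467 and 8631 under lithium, and did not overlap, as in 9.71% of genes. WT males had 8834, 7901, 7878, 7801 and 7644 under vehicle and 9659, 8831, 8286, 7570 and 8222 under lithium, and overlapped. The change with the sexes averaged was 0.14 ± 0.04 (limma adjusted p = 0.0286). The difference between the responses of HT and WT was 0.11 ± 0.06 (limma adjusted p = 0.624), so a larger response in HT was not shown. No member was called in that interaction, where 0.0166% of genes were, nor in the interaction of fluoxetine with genotype, where 0% were, by limma or edgeR. At an unadjusted p below 0.05 each held 1 member, Dlgap3 (0.42 ± 0.18) and Homer1 (-0.48 ± 0.19), beside 9.50% and 3.52% of all genes.

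**Figure D1:**
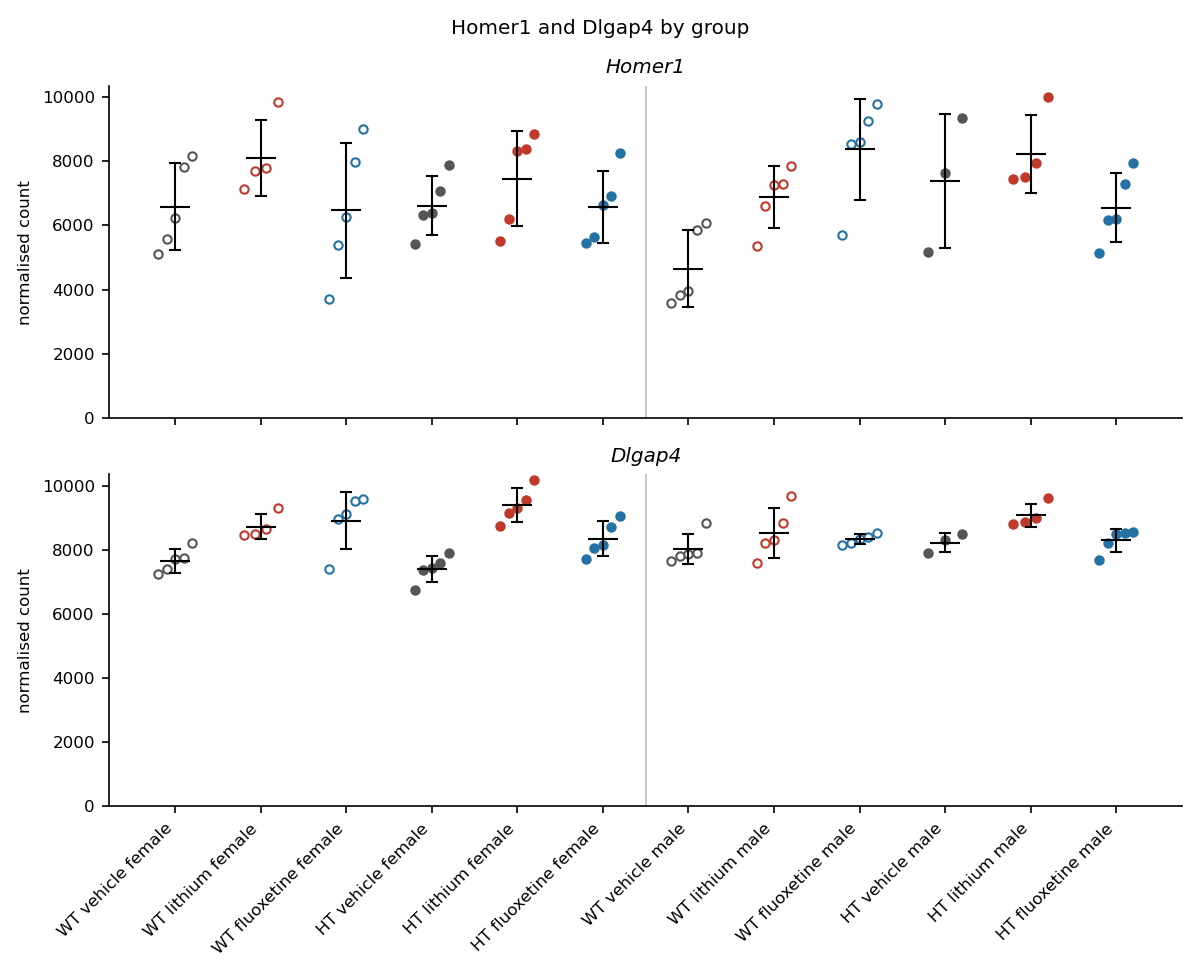
Normalised counts of Homer1 (top) and Dlgap4 (bottom) in each of the 56 libraries, by group, with females left of the grey line and males right of it. Open circles are WT and filled circles HT; grey is vehicle, red lithium and blue fluoxetine, with the group mean and SD in black. Lithium-treated HT mice lie above vehicle-treated HT mice for Dlgap4, and WT vehicle males have the lowest Homer1 mean, 4659.

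Fluoxetine was followed by higher Dlgap4 in WT females. The fluoxetine-treated WT females had 7383, 9529, 8944, 9574 and 9099 normalised counts, so that 4 of 5 lay above all vehicle-treated WT females and 1 lay among them. The rise in WT females was 0.21 ± 0.06 (limma adjusted p = 0.0122), in a comparison where 12.1% of genes were called. Fluoxetine-treated WT males, at 8142, 8218, 8399, 8522 and 8347, lay within the range of vehicle-treated males. With the sexes averaged the change was 0.14 ± 0.04 (limma adjusted p = 0.0438), and Dlgap4 was the 1 member called where 5.18% of genes were. In HT it was 0.09 ± 0.04 (limma adjusted p = 0.677). Of the fluoxetine-treated HT females 4 of 5 also lay above every vehicle-treated HT female, with a difference of 0.17 ± 0.06 that was not called (limma adjusted p = 0.173). With the sexes averaged in HT no member was called by limma or edgeR, where 0% of genes were called by limma. Dlgap4 was the 1 member with an unadjusted p below 0.05, beside 7.25% of all genes.

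The Dlgap4 changes were smaller after a correction for how reads spread over GC-rich and GC-poor transcripts in each library. Its longest transcript is 59.4% GC. The slope of log2 values on transcript GC content, per 10 points of GC, averaged -0.04 ± 0.05 (SD) in HT vehicle females and 0.05 ± 0.13 in HT lithium females. In HT males it was -0.07 ± 0.08 under vehicle and 0.06 ± 0.07 under lithium. WT females averaged -0.06 ± 0.08 under vehicle, -0.01 ± 0.06 under lithium and 0.09 ± 0.06 under fluoxetine. In WT males the slope went the other way, from 0.06 ± 0.06 under vehicle to -0.02 ± 0.08 under lithium and -0.05 ± 0.11 under fluoxetine, where the Dlgap4 differences were 0.08 and 0.06 and not called. After the trends with GC content and length were removed within each library, the Dlgap4 change was 0.10 for lithium in HT (limma adjusted p = 0.206), 0.10 for lithium in WT (0.106) and 0.08 for fluoxetine in WT (0.236), and none was called. Within females it was 0.16 for lithium in HT (limma adjusted p = 0.0611) and 0.02 for fluoxetine in WT (0.878), and neither was called. Within groups, Dlgap4 and the slope correlated at r = 0.38 over 56 libraries (Spearman rho 0.33, permutation p adjusted over 28 relations 0.0152), and after the correction at r = -0.41 (adjusted 0.00856). Without the 2 libraries farthest in the slope, HT lithium female 5 and WT fluoxetine female 2, the uncorrected r was 0.29 (rho 0.30) and missed the threshold (adjusted 0.0781).

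**Figure D2:**
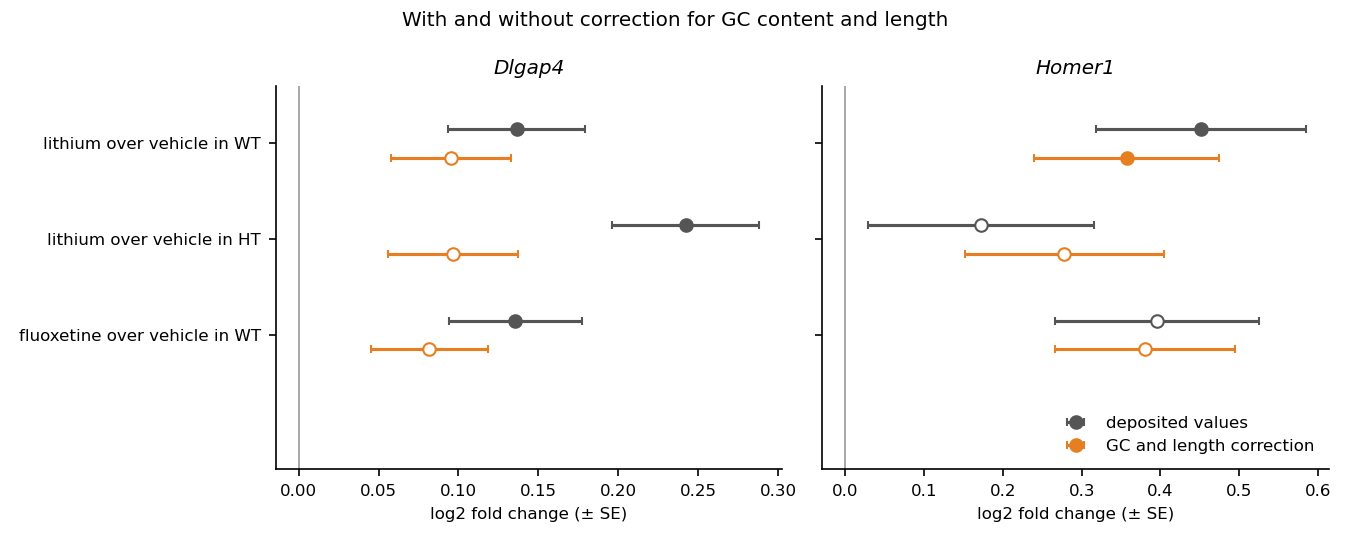
Log2 fold changes (horizontal axis, ± SE) of Dlgap4 (left) and Homer1 (right) for 3 drug comparisons with the sexes averaged, from the deposited values (grey) and after correction for GC content and length (orange); filled points were called at an adjusted p below 0.05. All 3 Dlgap4 calls end with the correction, while that of Homer1 for lithium in WT remains.

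Homer1 had its lowest mean in WT vehicle males and rose with lithium in WT mice. WT vehicle males had 6062, 5851, 3842, 3590 and 3951 normalised counts, and WT vehicle females 8161, 7832, 5571, 6246 and 5123. Under lithium, WT males had 7305, 5358, 6622, 7272 and 7867, and WT females 7705, 7140, 9834 and 7776. In males 4 of 5 lithium values lay above every vehicle value, and in females 1 of 4 did. With the sexes averaged, Homer1 rose by 0.45 ± 0.13 (limma adjusted p = 0.020), or 36.7%, and with Dlgap4 made 2 of 7 members called for lithium in WT, where 11.7% of genes were called. The longest transcript of Homer1 is the poorest in GC among the longest transcripts of the members, at 36.9%. After the GC and length correction the Homer1 change was 0.36 (limma adjusted p = 0.0475). Without WT lithium female 3, the highest of its group, the uncorrected change was 0.40 (limma adjusted p = 0.0535). In HT the lithium difference of Homer1 was 0.17 (limma adjusted p = 0.512). The response in HT minus that in WT was -0.28 (limma adjusted p = 0.704), so a response particular to WT was not shown.

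In the deposited values, the Homer1 difference with fluoxetine in WT mice was larger in males than in females. Fluoxetine-treated WT males had 9773, 8589, 9252, 8526 and 5709 normalised counts, of which 4 of 5 lay above every vehicle-treated WT male. The rise in WT males was 0.86 ± 0.18 on the log2 scale (limma adjusted p = 0.0126), or 81.2%, in a comparison where 1.03% of genes were called. Fluoxetine-treated WT females had 3717, 6270, 7988, 5383 and 8999, spread on both sides of their vehicle group, with a difference of -0.07. The response of males minus that of females was 0.93 ± 0.26 (limma adjusted p = 0.0239), and Homer1 was the 1 member called among the sex differences for fluoxetine in WT, where 7.74% of genes were called. With the sexes averaged the change in WT was 0.40 ± 0.13 and was not called (limma adjusted p = 0.0608). That held in 9 of 12 alternative settings. The others called it: edgeR (edgeR adjusted p = 0.0494), the olfactory covariate (limma adjusted p = 0.0341) and array weights (limma adjusted p = 0.0189). Homer1 was called in neither sex of HT. HT males had means of 6554 ± 1084 normalised counts under fluoxetine and 7385 ± 2092 under vehicle (SD). For HT females these were 6581 ± 1127 and 6620 ± 917.

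Other values moved with these Homer1 groups. Olfactory bulb markers (5 of 5 measured, none at 0) summed to between 1422 and 8023 in WT vehicle males, median 4099, and to between 276 and 5620 in fluoxetine-treated WT males, median 638. Of the 9 striatal markers, which are shared with other neurons in part, the sums ran from 4701 to 6128 and from 5018 to 7251 in the same groups. Their medians were 5814 and 5304. The striatal level used as a covariate, a mean of centred log2 values, averaged 0.04 ± 0.16 and -0.24 ± 0.33 (SD). Oligodendrocyte markers ran from 79367 to 236221, median 163192, and from 81387 to 160535, median 89730. The GC slope averaged 0.06 ± 0.06 (SD) and -0.05 ± 0.11. With the olfactory level as a covariate the male rise was 0.84 (limma adjusted p = 0.00667), and with the striatal level 0.74 (0.0222). After the GC and length correction it was 0.68 (0.0355), but the sex difference was 0.61 and no longer called (0.214). The part of these measures in the result was not tested further.

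Over the 14 comparisons within a sex members were called 3 times: Dlgap4 for lithium in HT females and for fluoxetine in WT females, and Homer1 for fluoxetine in WT males. In females the share of all genes called was 6.62% for lithium in WT, 10.5% for lithium in HT, 12.1% for fluoxetine in WT, 0.727% for fluoxetine in HT, 2.56% for HT against WT under fluoxetine and 0% under vehicle and lithium. In males it was 2.3%, 0.0166%, 1.03% and 0% for the same drug comparisons, and 0.261% under vehicle, 0% under lithium and 0.00555% under fluoxetine for HT against WT. Of the 7 differences between the sexes, those of fluoxetine in WT (7.74%), lithium in HT (0.172%), HT against WT under fluoxetine (0.155%) and fluoxetine in HT (0.0277%) had called genes.

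Leaving out a library ended several of these calls. The Homer1 rise in WT males lost its call without fluoxetine male 1 or 3 or vehicle male 3, 4 or 5 (0.77 to 0.99 over all 10 omissions, highest adjusted p 0.0747). The sex difference lost it without fluoxetine female 1, fluoxetine male 1, vehicle female 1 or vehicle male 4, with 0.74 as the lowest value. For Dlgap4, the lithium call in HT held in 17 of 17 omissions. Its lithium call in WT held in 14 of 19, and was lost without lithium female 1, lithium male 1 or 2, vehicle female 3 or vehicle male 5, and its fluoxetine call in WT held in 4 of 20, with changes from 0.12 to 0.17. The call of Dlgap4 in fluoxetine-treated WT females was lost without fluoxetine female 2 or 4 (0.19 each).

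No member was called between HT and WT under vehicle, lithium or fluoxetine with the sexes averaged, by limma or by edgeR, and 0% of genes were called by limma in each. At an unadjusted p below 0.05 there were 1, 2 and 0 members, beside 6.21%, 9.82% and 11.2% of all genes. Under vehicle that member was Homer1, at 0.34 ± 0.14 higher in HT (limma adjusted p = 0.757). The HT vehicle males, at 5177, 7640 and 9337 normalised counts, overlapped WT vehicle males through 1 of 3 mice, and the HT vehicle females, at 7065, 6321, 5424, 6404 and 7884, lay within the range of WT vehicle females. Under lithium the members were Dlgap3 and Dlgap4. Dlgap4 was 0.10 ± 0.04 higher in HT (limma adjusted p = 0.463).

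Dlgap3, a striatal and cortical adaptor whose loss gives mice compulsive grooming, stood highest in lithium-treated HT mice. HT males under lithium had 12278, 15304, 14310 and 14253 normalised counts, against 10931, 9755, 11971, 7662 and 10513 in WT males under lithium. These groups did not overlap, as in 6.85% of genes. HT females under lithium had 13237, 12411, 11319, 10016 and 15394, against 9087, 10792, 9860 and 10776 in WT, and 4 of 5 lay above every WT value. With the sexes averaged Dlgap3 differed by 0.38 ± 0.12 (limma adjusted p = 0.326), and lithium against vehicle in HT by 0.30 ± 0.13 (limma adjusted p = 0.135). Neither was called. The olfactory marker sums ran from 239 to 827 in HT lithium males and from 1289 to 7616 in WT lithium males, and with the olfactory level as a covariate the lithium difference in HT was 0.26 and was called (limma adjusted p = 0.0299). It was 0.14 after the GC and length correction (0.608) and 0.21 without HT vehicle female 1 and HT lithium female 5 (0.360), not called in either. The part of these measures in the result was not tested further.

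Dlgap1 and Dlgap2, the other scaffold adaptors, passed the test in no comparison with the sexes averaged. Dlgap1 ranged from a mean of 14442 ± 917 normalised counts in HT lithium females to 16696 ± 1751 in HT vehicle males (SD, n = 5 and 3), and was -0.08 ± 0.05 with lithium in WT and -0.10 ± 0.05 in HT. After the GC and length correction the WT difference was -0.17 and was called (limma adjusted p = 0.0349). Dlgap2 was lowest in WT vehicle females, at 2198 ± 263, and highest in WT fluoxetine males, at 2853 ± 287. Its difference with fluoxetine in WT was 0.18 ± 0.08 (limma adjusted p = 0.211), and males were 0.11 ± 0.05 above females (limma adjusted p = 0.353), where 0.283% of genes were called and no member was.

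Homer2 and Homer3, the lower-expressed cross-linkers, were not called in any comparison. Group means of Homer2 ran from 2927 ± 401 in HT vehicle females to 3441 ± 477 in HT lithium females. Those of Homer3 ran from 174 ± 6.45 in HT vehicle males to 272 ± 96.6 in WT fluoxetine females. Vehicle-treated HT males, at 180, 167 and 177, lay below every vehicle-treated WT male, at 266, 198, 203, 275 and 261, as 9.53% of genes were separated in that comparison. The olfactory sums of those groups were 388 to 3627 and 1422 to 8023.

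**Figure D3:**
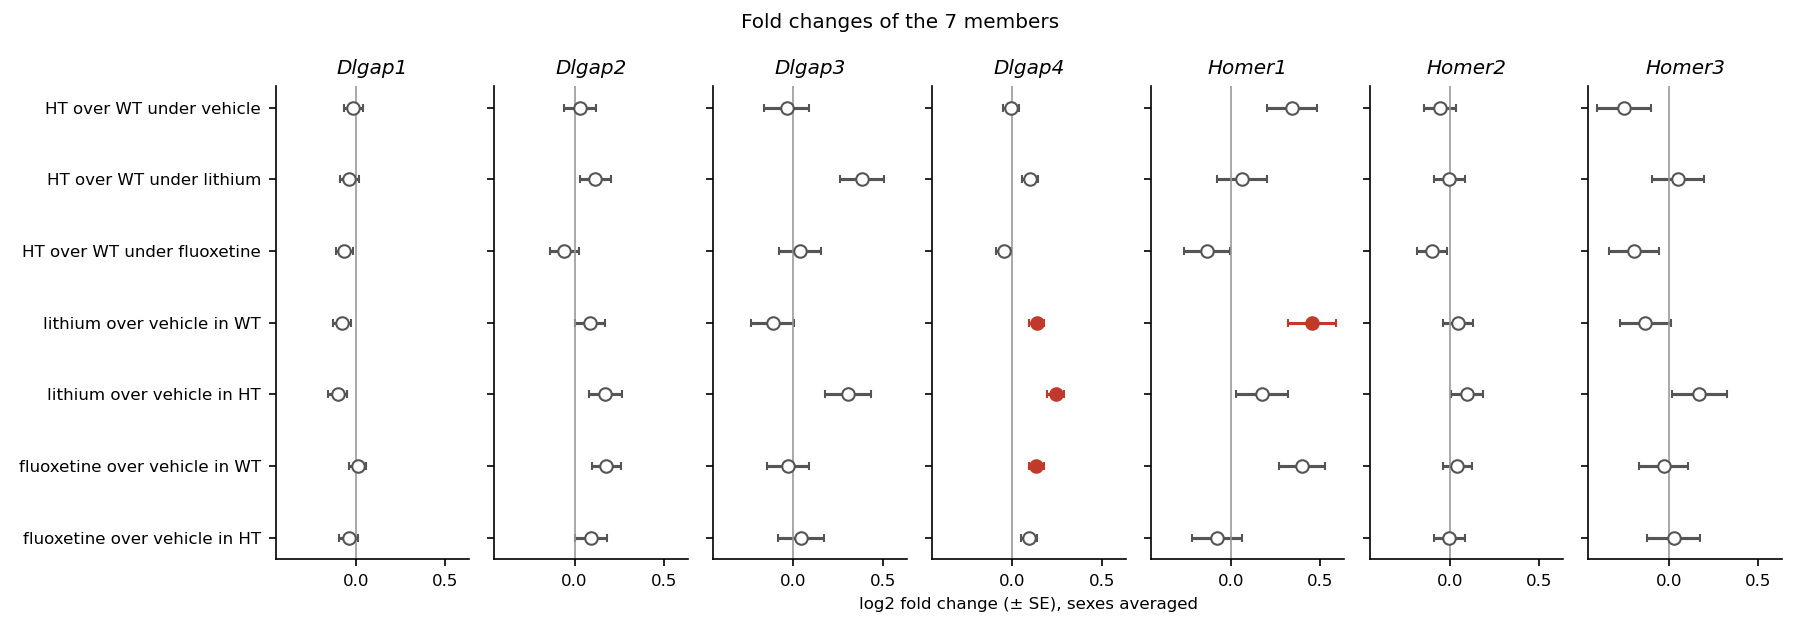
Log2 fold changes (horizontal axis, ± SE) of the 7 members in the 7 comparisons with the sexes averaged (rows); filled red points were called by limma at an adjusted p below 0.05. The 4 called points are Dlgap4 for lithium in both genotypes and for fluoxetine in WT, and Homer1 for lithium in WT; lithium and fluoxetine comparisons within a genotype share the vehicle libraries.

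**Figure D4:**
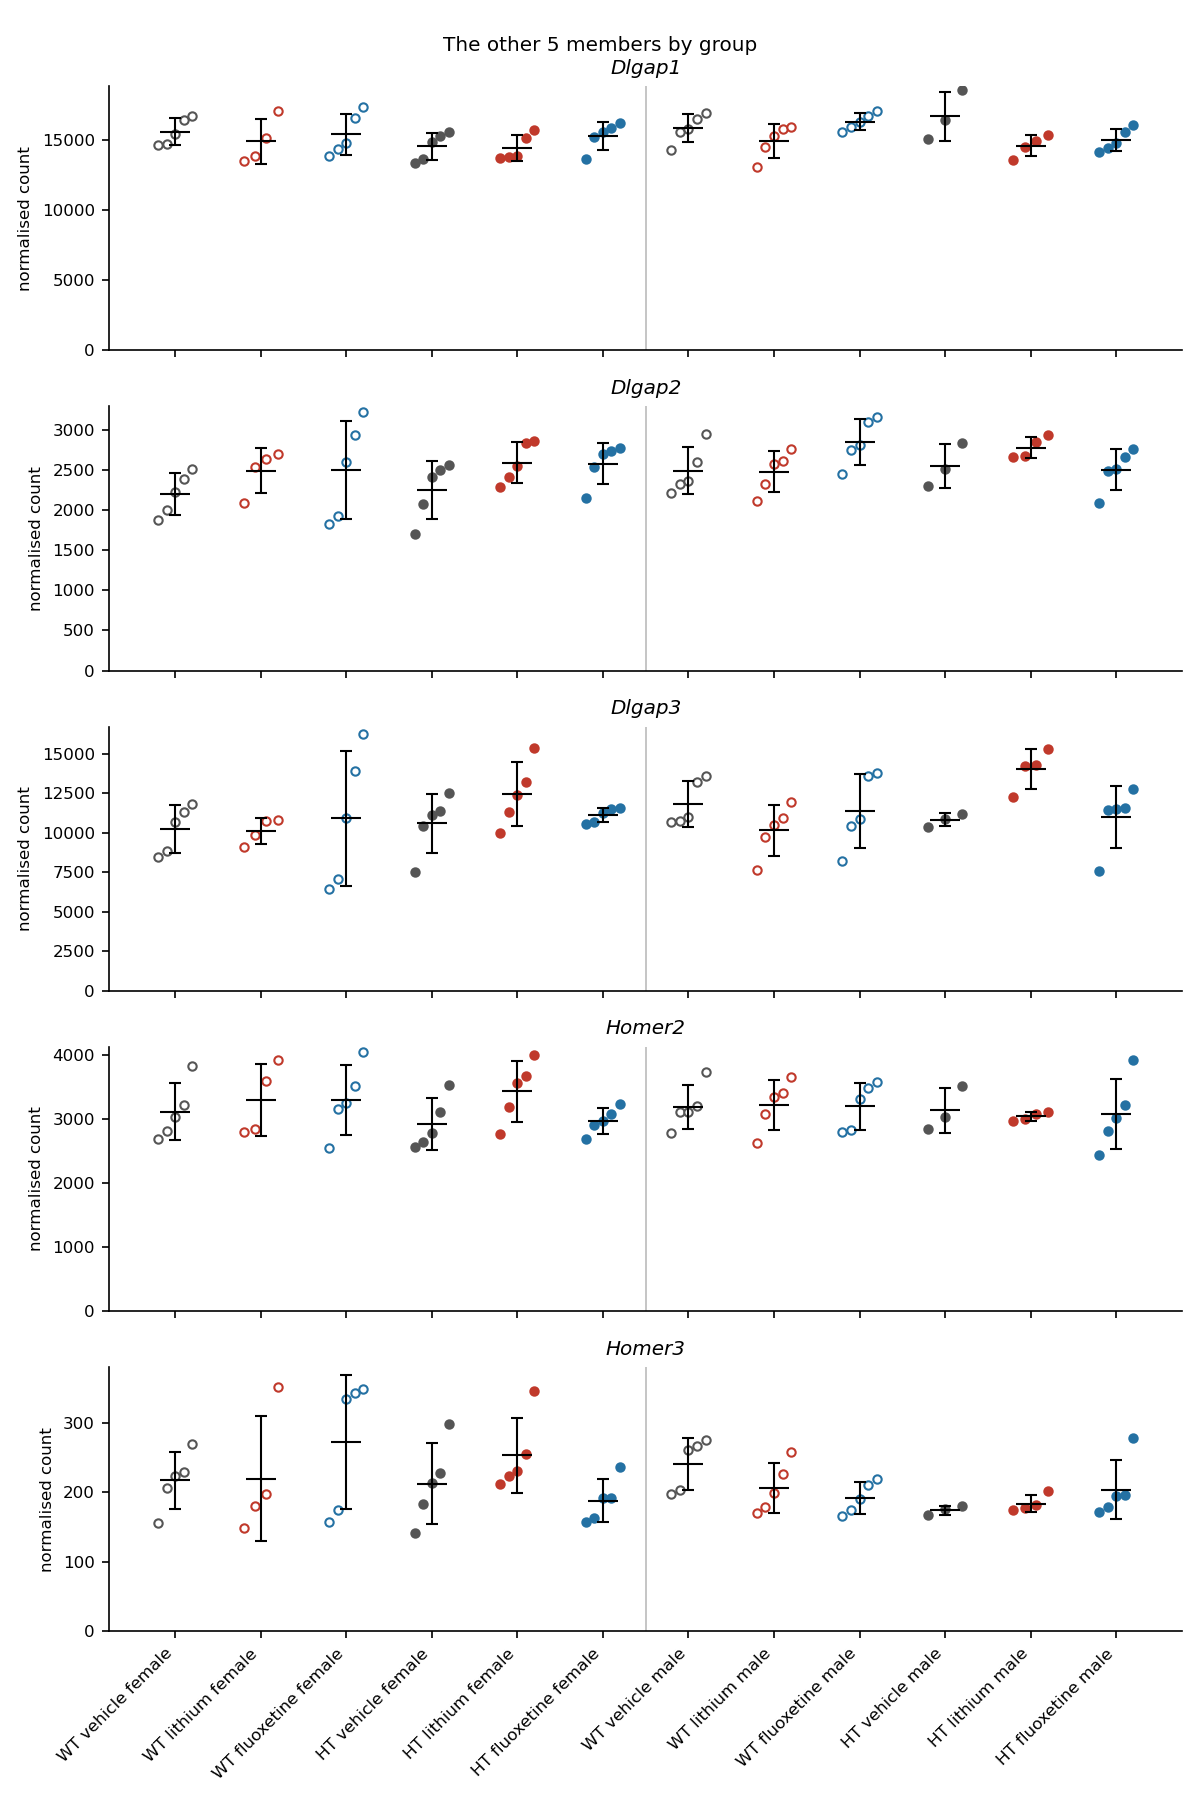
Normalised counts of Dlgap1, Dlgap2, Dlgap3, Homer2 and Homer3 in each library by group, drawn as in the plot of Homer1 and Dlgap4. Dlgap3 has its highest mean in HT lithium males, 14036, and the mean of Homer3 is highest in WT fluoxetine females, 272.

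A list of 36 other genes of the same complex was chosen by function, with earlier results of these data known. Its shares called are therefore a description and no independent support. With lithium in WT 8 of them rose and 1 fell, or 25.0% called beside 11.7% of all genes. Their median log2 change was 0.08 beside -0.0029. With lithium in HT 11 rose and 1 fell, or 33.3% beside 9.77%, with a median of 0.12 beside 0.0021. With fluoxetine in WT 7 rose and 0 fell, or 19.4% beside 5.18%, with a median of 0.07 beside -0.0073. In the other 4 comparisons with the sexes averaged none was called by limma, while 1, 7, 5 and 5 had an unadjusted p below 0.05 for HT against WT under vehicle, lithium and fluoxetine and for fluoxetine in HT, as did 6.21%, 9.82%, 11.2% and 7.25% of all genes. These values of the complex come from the deposited counts, and none after the GC and length correction is given here. In them, the scaffolds to which the members bind were called with lithium in HT. Shank1 rose by 0.52 ± 0.09 (limma adjusted p = 1.51e-04), Shank2 by 0.33 ± 0.07 (0.00187) and Shank3 by 0.34 ± 0.09 (0.0127). In WT, Shank2 rose by 0.21 ± 0.07 with lithium (limma adjusted p = 0.0286), Shank1 was 0.21 ± 0.08 (0.0905) and Shank3 0.06 ± 0.09 (0.751). Synpo, the spine apparatus protein synaptopodin, rose in all 3 comparisons, by 0.34 with lithium in WT, 0.33 with lithium in HT and 0.26 with fluoxetine in WT. Ryr2, a calcium channel of internal stores, rose by 0.23 with lithium and by 0.31 with fluoxetine in WT. Of the adhesion proteins, Nlgn3 rose by 0.20 with lithium in WT, and Nlgn2 by 0.33 with lithium in HT. Arhgef7, an exchange factor for small GTPases, rose by 0.16 with lithium in WT, the spine protein gene Dbn1 by 0.24 with lithium in HT, and Sipa1l1 by 0.17 with fluoxetine in WT. Cdc42, a small GTPase of the actin cytoskeleton, was the gene of the list that fell with lithium, by 0.17 in WT and by 0.23 in HT.

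Between libraries of the same group, the members split by their relation to the olfactory bulb markers. With group means removed, the level of olfactory bulb markers correlated over 56 libraries with Dlgap3 at r = -0.77 (Spearman rho -0.74) and with Dlgap2 at r = -0.72 (rho -0.68), but with Homer3 at r = 0.78 (rho 0.76) and with Homer2 at r = 0.75 (rho 0.78). Each permutation p was 1e-05, the smallest that 100000 shuffles can give, and 7.00e-05 adjusted over 28 relations. Without WT fluoxetine females 4 and 5, the libraries farthest from the median, these were -0.72, -0.67, 0.75 and 0.78. Dlgap1 gave r = -0.40 (rho -0.38, permutation p 0.0108, adjusted 0.0274), which missed the threshold without those libraries (r = -0.34, adjusted 0.0781). Dlgap4 and Homer1, the members called in the drug comparisons, gave 0.13 (rho 0.22, permutation p adjusted 0.690) and -0.07 (rho -0.0033, adjusted 0.731).

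Homer1 followed other measures. It correlated with the striatal marker level at r = -0.49 (rho -0.45, permutation p 5.40e-04, adjusted 0.00252) and at -0.42 without the 2 farthest libraries. With the level of 20 immediate early genes, the class to which the short form of Homer1 belongs, r was -0.07 (rho -0.09, permutation p 0.630, adjusted 0.731). Of those 20 genes, 2 were called with fluoxetine in WT, beside 5.18% of all genes: Egr3 and Nptx2 rose, by 0.67 and 0.57. With lithium in WT 1 was, beside 11.7% of all genes: Ier2 fell by 0.61. None was called by limma with lithium in HT or between HT and WT under vehicle, where 5 and 7 had an unadjusted p below 0.05 beside 23.5% and 6.21% of all genes. With the GC slope, r was -0.44 for Homer1 and -0.48 for Homer2, and 0.51 for Dlgap3 and 0.35 for Dlgap2 (permutation p adjusted 0.00812, 0.00336, 0.00106 and 0.0187; rho -0.46, -0.46, 0.58 and 0.41). Without the 2 farthest libraries these were -0.40, -0.45, 0.48 and 0.33. Their order follows the GC content of the longest transcript in part, at 36.9% for Homer1, 44.4% for Homer2, 55.3% for Dlgap2 and 63.9% for Dlgap3. Over the 56 libraries Dlgap1, at 50.9% GC, gave r = 0.12 and Dlgap4, at 59.4%, gave 0.38, but Homer3, at 60.2%, gave 0.07.

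The gene whose level tracked Dlgap3 most closely was Shank3. Of 15025 genes set against Dlgap3 over the 56 libraries with group means removed, Shank3 ranked 1, at r = 0.96, before Dab2ip and Nrgn, both at 0.93. After the GC and length correction r was 0.94 and the rank 20, and over the 12 group means r was 0.92 and the rank 5. Shank2 ranked 14 for Dlgap2, at r = 0.86. Dlgap4 and Homer1 correlated weakly with Shank3, at 0.16 and 0.20, and Homer2 and Homer3 negatively, at -0.58 and -0.63. These correlations are descriptions: the libraries share the olfactory and GC differences given above.

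Each of the other members had its own nearest genes over the libraries. For Homer1 these were Rps6ka3 (r = 0.88), Spred1 (0.86) and Hivep2 (0.83), and for Dlgap4 Srrm3 (0.81), Actn4 (0.79) and Mpp2 (0.77). For Dlgap2 they were Prkcb, Unc13a and Pcnx2, all at 0.88, and for Dlgap1 Tspyl4 (0.75), Rab3gap1 (0.74) and Oxr1 (0.73). For Homer2 they were Ankrd6 and Hnrnph1, both at 0.88, and Lama3 (0.86), and for Homer3 Ybx1 (0.91), Hmgn1 (0.90) and Col9a2 (0.90). Among the members themselves, Dlgap2 and Dlgap3 correlated at 0.81, and Dlgap1 gave 0.43 with Dlgap2 and 0.42 with Dlgap3. Dlgap4 gave 0.01, 0.15 and 0.21 with Dlgap1, Dlgap2 and Dlgap3. Homer2 and Homer3 correlated at 0.57, while Homer1 gave 0.31 with Homer2 and -0.36 with Homer3. Pairs across the families ran from -0.64 for Dlgap2 and Homer3 to 0.34 for Dlgap4 and Homer1, with Dlgap3 and Homer3 at -0.63.

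**Figure D5:**
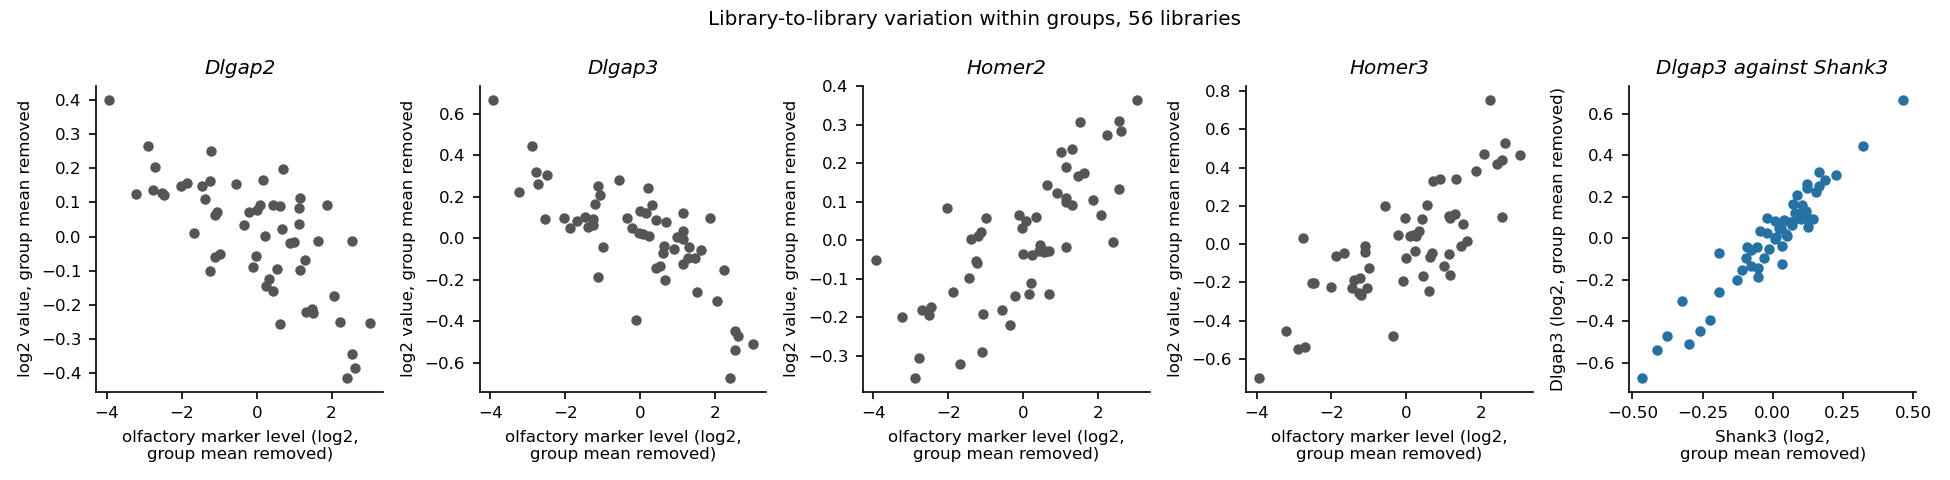
Log2 values with the group mean removed, 1 point per library (56 libraries): Dlgap2, Dlgap3, Homer2 and Homer3 against the olfactory marker level, and Dlgap3 against Shank3. Dlgap2 and Dlgap3 fall and Homer2 and Homer3 rise with the olfactory level (r = -0.72, -0.77, 0.75 and 0.78), and Dlgap3 runs with Shank3 (r = 0.96).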

How the data were processed

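Poly(A) RNA of prefrontal cortex was sequenced, per the labels' protocols, from strand-specific TruSeq libraries. The table deposited by the authors holds, per gene and library, a signal: reads of the gene over the size factor of the library. Salmon 0.11.2, R 3.6.0, DESeq2 1.19.11 and GRCm38 are named, without role or order, per the submitters' processing notes. Of 59 columns, 56 match a sample and 3 match none and stayed out. Of the 57 labelled samples, 1 WT lithium female was not analysed here. Every value (100% within 1e-06) was a whole multiple of its library's unit, so whole reads were recovered, which set the counting error. This scaling hides any change in the total RNA of a cell.

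Values were taken as log2(value + 1) for genes with at least 10 in at least 3 libraries (18026 genes), and a normalised count is the deposited value. limma 3.58.1 in R 4.3.3 fitted the means of all 12 groups with an intensity trend, leaving 44 residual degrees of freedom. Comparisons were two-sided contrasts, and a gene was called where its p, adjusted over all genes by Benjamini and Hochberg, was below 0.05. Permutations for relations ran within groups. The fit was tested on simulated data.

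The alternatives were edgeR 4.0.16 (quasi-likelihood) on the recovered reads, TMM factors, a pseudocount of 5, no filter, the replicate number as a block, the compared groups only, olfactory or striatal level as a covariate, a correction for GC content and length by splines with 4 degrees of freedom, array weights and leaving out each library. Transcript lengths and GC content came from GENCODE on GRCm38, with GC content that of the longest transcript of each gene. The members, lists and comparisons were chosen with earlier results of these data known. All 7 members are named. Others named are Shank1, Shank2 and Shank3, up to 4 called genes of the complex with the smallest p, and the 3 genes most correlated with each member. Up to 4 immediate early genes are named by the same rule. Cdc42, and Synpo with lithium in HT, fall outside it and were named after their values were seen. A gene of the complex that this rule would name is not reported here.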

Additional observations from a re-analysis of the deposited data

Results flagged for a closer look

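In 4 of 77 combinations of member and group with at least 4 libraries, a library stood far from the others of its group by Dixon's criterion, which chance alone gives in about 1 in 20 groups. HT fluoxetine male 5 had 7603 normalised counts of Dlgap3 against 11455 to 12806 in the others, and 278 of Homer3 against 172 to 196. WT fluoxetine female 1 had 7383 of Dlgap4 against 8944 to 9574, and WT vehicle male 1 had 8834 of Dlgap4 against 7644 to 7901. The response of Homer1 to fluoxetine in WT differed between the sexes, by 0.93 in males minus females on the log2 scale (limma adjusted p = 0.0239).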

How the results depend on the processing

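The counts of members called for HT against WT, for fluoxetine in HT, for the interactions and for sex were 0 in every setting run. For lithium in WT (2 called) the count stayed 2 with the GC and length correction, but as Homer1 and Dlgap1 in place of Homer1 and Dlgap4, and was 1 with that correction and the replicate block together, where Homer1 missed the threshold (limma adjusted p = 0.0507), and 1 to 2 without each library. For lithium in HT (1 called) it was 2 with the olfactory covariate and 0 with the GC and length correction, with or without the block. For fluoxetine in WT (1 called) it was 2 with the olfactory covariate and with edgeR, 3 with array weights, 0 with the striatal covariate, the GC and length correction (with or without the block) and the compared groups only, and 0 to 2 without each library. Over the 14 comparisons within a sex (3 calls) it was 8 with the olfactory and 5 with the striatal covariate, 1 with the GC and length correction (with or without the block) and with the compared groups only, 12 with array weights, 5 without HT vehicle female 1 and HT lithium female 5, and 2 to 4 without each library. Over the 7 sex differences (1 call) it was 0 with the GC and length correction (with or without the block) and the compared groups only, 3 with array weights, and 0 to 2 without each library. The causes were not tested, beyond the fewer samples of the compared groups only. Of 39 fold changes called or larger than their SE, 1 reversed: Dlgap4 between HT and WT under fluoxetine, at 0.0015 after the GC and length correction, with or without the block. The relation of Dlgap4 to the GC slope also reversed with it, to -0.41. Leaving out those 2 libraries, and the GC correction with the block, were chosen after seeing the data. The replicate numbers do not pair the mice: libraries of the same number correlated at 0.00135 on average, 10 of 56 correlated best with their own number, and in 0 of 14 comparisons was every pair over 0.1. With the replicate block alone the calls within a sex went from 3 to 4 and no other count of calls moved, with Dlgap4 at 0.24 for lithium in HT. Depth was lowest for Homer3, at 142 to 351 normalised counts.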
